A study of Rattus norvegicus with 5 samples.

Results

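FGF, PDGF, EGF and VEGF signalling was represented by 123 probe sets of 83 genes among the 31042 probe sets other than controls, and the members were chosen by gene symbol alone. A probe set was taken where the platform annotation gave it a single symbol and that symbol named an FGF or FGF receptor, a PDGF, VEGF or angiopoietin ligand, a PDGF receptor, a ligand or receptor of the EGF family, HGF or Met, Kit or its ligand, Gas6 or Axl, a Sprouty or a dual-specificity phosphatase (Dusp). The rule also took in Fgfr1op2, whose product is not an FGF receptor and whose 2 probe sets had ranges of 0.35 and 0.82. Ligands and receptors with no probe set under their own symbol, such as Pdgfb and Nrg3, were not analysed here.

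Cells were laser-captured from 4 zones of the mandibular condylar cartilage (MCC), the fibrous (FZ), proliferative (PZ) and mature (MZ) zones and, deepest, the hypertrophic zone (HZ). The MCC is the fibrocartilage that covers the lower jaw at its joint with the skull. Chondrocytes from the middle and deep layers of the femoral condylar cartilage (FCC), a hyaline cartilage of the knee, served as the control. All 5 groups were taken from 5-week-old male Sprague-Dawley rats of wild-type genotype, and the sources used here do not give the number of rats behind each pool. Each group was a single pool of captured cells from 7 µm sections, 30 sections per group by the labels, although the study's methods state a larger number for FZ. The pooled RNA went through linear amplification and onto 1 Affymetrix rat genome array for each group. No difference below could therefore be checked against replicates or tested, and p-values are absent.

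Every value below is a log2 value relative to the median of that probe set over the 5 arrays, so a difference of 1 between arrays is 2-fold and a difference of 2 is 4-fold. The values hold no expression level, and a gene near 0 on all arrays may be unexpressed or equally expressed in all of them. In a bulk pool, fewer cells of a type and less RNA per cell cannot be told apart.

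The tissue markers followed the labels of FZ and FCC. The median of 10 fibrous tissue genes was 1.75 in FZ, 0.76 in PZ, -0.46 in MZ, -1.79 in HZ and 0.00 in FCC, and that of 12 hyaline cartilage genes was -2.19, 0.00, 0.33 and -0.87 in the same 4 zones against 1.58 in FCC. The median of 8 hypertrophic chondrocyte genes was -0.06 in FZ, -0.36 in PZ, 0.61 in MZ, 0.37 in HZ and -0.53 in FCC, so these markers set the deep zones (MZ and HZ) apart from the superficial zones (FZ and PZ) but were not higher in HZ than in MZ. Markers of blood and vessel cells were higher in the deep zones too: the median of 8 pan-leukocyte genes was 0.00 in FZ, -0.60 in PZ, 0.83 in MZ, 1.21 in HZ and -1.19 in FCC, and that of 11 endothelial genes was 0.00, -0.16, 0.67 and 0.56 in the 4 zones against -0.37 in FCC. Whether a marker is absent from an array cannot be read from values of this kind. The 18 hybridization control probe sets averaged -0.15 in FZ, 0.44 in PZ, -0.02 in MZ, -0.03 in HZ and 0.50 in FCC. Setting them equal would put the median difference of all probe sets against FCC at 0.65 (FZ), 0.10 (PZ), 0.52 (MZ) or 0.53 (HZ), and that of FZ against PZ at 0.54. The median would then be 0.45 for the mean of the MCC zones against FCC and -0.15 for superficial against deep zones. Where a gene had several probe sets, their SD had a median of 0.20 for superficial against deep zones and 0.26 for the MCC zones against FCC over 4525 genes.

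The members are secreted growth factors, the receptor tyrosine kinases they bind, and inhibitors of the cascade that runs from those receptors through RAS to the kinase ERK. In growing cartilage, FGF signalling through Fgfr3 restrains the proliferation of chondrocytes, VEGF from hypertrophic chondrocytes draws in vessels, and EGF receptor signalling takes part in the removal of cartilage at the border with bone. Several Sprouty and Dusp genes are transcribed in response to ERK and limit it in turn, so they are widely used as readouts of the pathway.

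The promoters of 4 such inhibitors are shown because Dusp6, Spry1 and Spry4 were highest in MZ or HZ in these data whereas Dusp1 was lowest there. They are the 250 bases before the RefSeq start of the gene on the GRCr8 assembly, written 5′ to 3′ on the strand of the gene. Capitals mark matches on either strand to CCGGAA, the core bound by ETS factors, to GGGCGG, the GC box, and to TGACG, the core of the cAMP response element.
Dusp6: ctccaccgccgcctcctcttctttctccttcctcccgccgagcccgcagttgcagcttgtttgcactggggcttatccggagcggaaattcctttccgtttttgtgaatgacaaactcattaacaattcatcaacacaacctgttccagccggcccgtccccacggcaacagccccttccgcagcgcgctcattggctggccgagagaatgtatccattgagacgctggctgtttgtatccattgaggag
Spry1: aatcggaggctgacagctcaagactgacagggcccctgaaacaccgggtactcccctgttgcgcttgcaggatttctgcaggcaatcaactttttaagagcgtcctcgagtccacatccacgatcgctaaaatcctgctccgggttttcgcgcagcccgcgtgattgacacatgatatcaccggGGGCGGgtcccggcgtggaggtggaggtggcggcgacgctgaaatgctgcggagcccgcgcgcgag
Spry4: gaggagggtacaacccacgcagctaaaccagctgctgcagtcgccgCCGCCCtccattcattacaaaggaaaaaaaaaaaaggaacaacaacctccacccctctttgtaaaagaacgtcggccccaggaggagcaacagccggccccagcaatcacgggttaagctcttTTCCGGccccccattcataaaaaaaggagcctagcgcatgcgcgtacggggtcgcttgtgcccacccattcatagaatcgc
Dusp1: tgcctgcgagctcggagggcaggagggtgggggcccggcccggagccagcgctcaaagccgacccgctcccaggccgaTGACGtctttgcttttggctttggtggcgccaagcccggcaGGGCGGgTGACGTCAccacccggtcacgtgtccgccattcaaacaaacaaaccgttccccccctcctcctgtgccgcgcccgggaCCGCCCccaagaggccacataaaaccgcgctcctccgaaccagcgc
The Dusp6 promoter lies at chr7:35979354-35979603 on the plus strand, that of Spry1 at chr2:122485097-122485346 on the plus strand, that of Spry4 at chr18:30702547-30702796 on the minus strand and that of Dusp1 at chr10:17184603-17184852 on the plus strand. Dusp6 had no match to any of the 3 motifs in this window. Spry1 had 1 GC box, and Spry4 had 1 GC box and 1 ETS core. Dusp1 had 2 GC boxes and 3 cores of the cAMP response element, of which a pair overlapped in a palindrome. Promoters were matched for 69 of the 83 member genes. The ETS core was found in 7 of them (10.1%) against 13.4% of 27457 promoters, the GC box in 44 (63.8%) against 32.4%, and the cAMP response element core in 14 (20.3%) against 19.0%. These matches describe the letters of the window and are not evidence of binding.

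The widest differences fell on Fgf13, on several FGF and PDGF receptors, on Vegfa and Angpt2, and on feedback inhibitors. The range over the 5 arrays was under 0.5 for 59 of 123 member probe sets, which was 48.0% against 43.5% of all probe sets, and the median range was 0.52 for members and 0.58 for all. A difference of at least 2 in any of the 10 pairs of arrays was reached by 12 member probe sets (9.76%) against 6.51% of all. These 12 belonged to 11 genes, namely Fgf13, Fgfr2, Fgfrl1, Pdgfrb with 2 probe sets, Pdgfrl, Vegfa, Angpt2, Spry1, Dusp1, Dusp2 and Dusp6. A difference of at least 1 in any pair was reached by 38 member probe sets (30.9%) against 26.9% of all, and the map of values by array shows these 38.

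**Figure D1:**
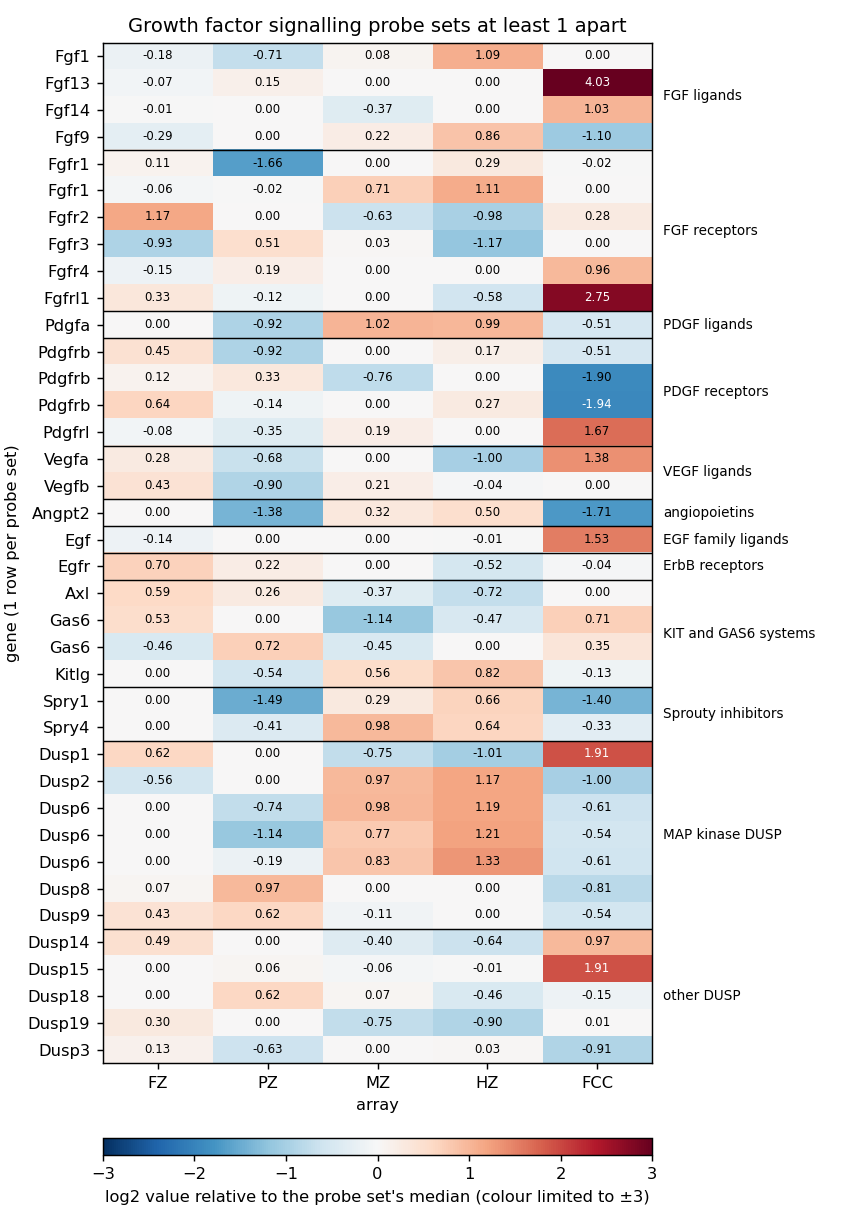
Log2 value of each member probe set relative to its median over the 5 arrays, for the 38 probe sets with a range of at least 1. Rows are probe sets grouped by role, columns are the arrays (FZ, PZ, MZ and HZ of the MCC, then FCC), colour is limited to 3 on either side of 0, and Fgf13 at 4.03 in FCC is the highest value.

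As deposited, both the member counts and the shares of all probe sets were larger in each pair with FCC than between zones. Against FCC, the share of member probe sets at least 2 apart was 3.25% for FZ and also for MZ, 4.07% for PZ and 6.5% for HZ. In FZ against FCC, 4 member probe sets were at least 2 apart, where 2.13% of all probe sets were, with 2 higher (0.828% of all) and 2 lower (1.3%). In PZ against FCC, 5 were (2.43% of all), with 1 higher (0.809%) and 4 lower (1.62%). In MZ against FCC, 4 were (2.47% of all), with 1 higher (1.15%) and 3 lower (1.33%). In HZ against FCC, 8 were (3.55% of all), with 4 higher (1.68%) and 4 lower (1.86%). These 4 comparisons share the FCC array, and the splits depended on the scaling. The splits were counted again with the hybridization controls set equal, an alternative chosen for them after seeing the data. FZ then had 4 higher (2.85% of all) and 1 lower (0.715%), and PZ had 1 higher (0.902%) and 2 lower (1.48%). MZ had 6 higher (2.89%) and 3 lower (0.838%), and HZ had 10 higher (3.86%) and 3 lower (1.2%). The shares of all probe sets thus changed with the scaling too. Between zones of the MCC, 1 member probe set was at least 2 apart in FZ against HZ, where 1.25% of all probe sets were, and 2 were in PZ against HZ, where 1.74% were. No member reached this size in FZ against PZ (0.609% of all), FZ against MZ (0.854%), PZ against MZ (1.11%) or MZ against HZ (0.158%). With the controls set equal, 2 were higher in FZ than in PZ (1.93% of all). Lower in PZ were 6 against MZ (2.11% of all) and 7 against HZ (2.64% of all).

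At the level of genes, with probe sets of a gene averaged, the average of FZ and PZ (superficial zones) was set against that of MZ and HZ (deep zones), and the average of all 4 MCC zones against FCC. A difference of at least 1 between superficial and deep zones was reached by 6 of 83 member genes (7.23%) against 6.03% of 14217 genes. All 6 were lower in the superficial zones, where 3.78% of all genes were lower: Pdgfa, Dusp6, Dusp2, Spry1, Angpt2 and Spry4. No member was higher by this size, against 2.24% of all genes, and Dusp19 and Axl came closest at 0.97 each. The PZ array bore on this count, because without it 3 genes stayed lower by at least 1 and 3 others, Axl, Dusp14 and Dusp19, were higher by at least 1. The shares of all genes without PZ were not computed, so nothing particular to the members is read from that change. Against FCC, 12 of 83 genes (14.5%) were at least 1 apart in the MCC zones, compared with 9.83% of all genes. Of these, 5 were higher (5.13% of all genes) and 7 were lower (4.7% of all genes). With the hybridization controls set equal the split was 11 higher and 5 lower. The shares of all genes under that scaling were not computed. Because it would put the median difference of all probe sets at 0.45 in this contrast, nothing about the members is read from the change.

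**Figure D2:**
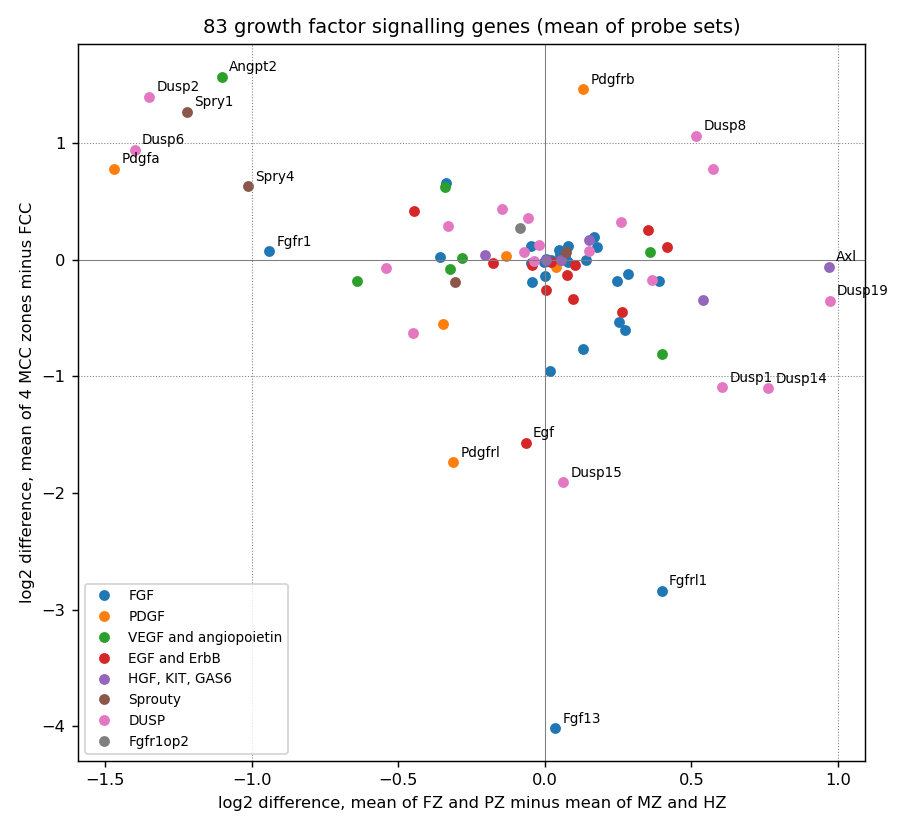
Each point is 1 of the 83 member genes (mean of its probe sets), placed by its log2 difference, superficial (FZ, PZ) minus deep (MZ, HZ) zones, on the horizontal axis and by that of the MCC zones minus FCC on the vertical axis, with dotted lines at a difference of 1. Angpt2, Dusp2, Spry1, Dusp6, Pdgfa and Spry4 lie at the upper left, lower in the superficial zones and higher in the MCC than in FCC, while Fgf13 at -4.02 and Fgfrl1 at -2.84 lie lowest against FCC.

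Among the FGF ligand genes, Fgf13 stood apart in FCC and most of the others stayed within 1 over the arrays. Fgf13, an FGF homologous factor that stays inside the cell and binds sodium channels, was at -0.07 in FZ, 0.15 in PZ, 0.00 in MZ, 0.00 in HZ and 4.03 in FCC. It was low in all 4 MCC zones alike, and the mean of the zones minus FCC was -4.02, the difference of largest size of any member gene. Fgf14, of the same intracellular group, had 1 probe set at -0.01, 0.00, -0.37 and 0.00 in FZ, PZ, MZ and HZ against 1.03 in FCC. Its other probe set stayed within 0.65 over the arrays.

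Fgf9, a secreted factor that takes part in growth of the skeleton, had 1 probe set at -0.29 in FZ, 0.00 in PZ, 0.22 in MZ, 0.86 in HZ and -1.10 in FCC. The value was higher at each step down through the zones and lowest in FCC, but the other Fgf9 probe set had a range of 0.26. Fgf1, which binds all the FGF receptors, had 1 of 3 probe sets at -0.18, -0.71, 0.08 and 1.09 in the 4 zones and 0.00 in FCC, so HZ alone was high, and the other 2 were flat. Fgf18, the ligand that acts through Fgfr3 in the growth plate, was at 0.42 in FZ, -0.04 in PZ, -0.19 in MZ, 0.00 in HZ and 0.17 in FCC. Fgf2, a factor held in the matrix of cartilage, was at 0.00, 0.02, -0.26 and -0.27 in the 4 zones against 0.48 in FCC. In all, 18 of 22 FGF ligand genes had every probe set within 1. For 13 every probe set was within 0.5, among them Fgf3, Fgf7, Fgf8 and Fgf10. Small ranges were common on these arrays, where 43.5% of all probe sets ranged by under 0.5 and 26.9% by at least 1. Fgf5, Fgf12 and Fgf21 had widest ranges of 0.71, 0.68 and 0.52.

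The FGF receptors differed from each other in the zone where they were high. Fgfrl1, a receptor-like protein that lacks the kinase domain, was at 0.33 in FZ, -0.12 in PZ, 0.00 in MZ, -0.58 in HZ and 2.75 in FCC. All 4 zones were thus far under FCC, with a mean difference of -2.84. Fgfr4 had a smaller difference of the same kind, with -0.15, 0.19, 0.00 and 0.00 in the 4 zones against 0.96 in FCC. Fgfr3, which restrains chondrocyte proliferation, had 1 probe set at -0.93 in FZ, 0.51 in PZ, 0.03 in MZ, -1.17 in HZ and 0.00 in FCC. PZ and MZ were above FZ and HZ, and the other Fgfr3 probe set was also highest in PZ, at 0.38, but with a range of 0.51.

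Fgfr2, a receptor known from bone-forming cells, had 1 of 5 probe sets at 1.17 in FZ, 0.00 in PZ, -0.63 in MZ, -0.98 in HZ and 0.28 in FCC. It was lower at each step from FZ to HZ, and its difference of 2.15 between FZ and HZ was the only member difference past 2 in that pair of arrays. The other 4 Fgfr2 probe sets had ranges of at most 0.74 and did not show this order. Fgfr1, known for expression in hypertrophic cartilage, had 1 probe set at -0.06, -0.02, 0.71 and 1.11 in FZ, PZ, MZ and HZ and 0.00 in FCC. Its other probe set was at 0.11, -1.66, 0.00 and 0.29 in the zones and -0.02 in FCC, so that PZ alone was low there, and both probe sets were highest in HZ.

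The PDGF genes held a ligand that was high in the deep zones and a receptor that was low in FCC. Pdgfa, a ligand made by many mesenchymal cells and by platelets, was at 0.00 in FZ, -0.92 in PZ, 1.02 in MZ, 0.99 in HZ and -0.51 in FCC. MZ and HZ were above the other 3 arrays, and superficial minus deep zones gave -1.47, the size furthest from 0 of any member gene in this contrast. Without the PZ array it was -1.01. Megakaryocyte and platelet markers, 6 genes, had medians of -0.36 in FZ, -0.17 in PZ, 1.21 in MZ, 0.35 in HZ and 0.00 in FCC, and their part in the Pdgfa values was not tested. Pdgfc and Pdgfd were within 0.26 over the arrays.

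Pdgfra, the receptor of Pdgfa, was at -0.19, -0.47, 0.00 and 0.04 in FZ, PZ, MZ and HZ and at 0.39 in FCC. Pdgfrb, the receptor typical of pericytes and mesenchymal progenitors, had 1 probe set at 0.64 in FZ, -0.14 in PZ, 0.00 in MZ, 0.27 in HZ and -1.94 in FCC. A second was at 0.12, 0.33, -0.76 and 0.00 in the zones against -1.90 in FCC, and the last at 0.45, -0.92, 0.00 and 0.17 against -0.51 in FCC. In the first pair of probe sets every zone was above FCC by at least 1.14, whereas in the last PZ was the lowest array. The mean of the 3 gave 1.46 for the MCC zones against FCC. Pdgfrl, a receptor-like protein without a kinase domain, showed the opposite, with -0.08, -0.35, 0.19 and 0.00 in the zones against 1.67 in FCC and a mean difference of -1.73.

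**Figure D3:**
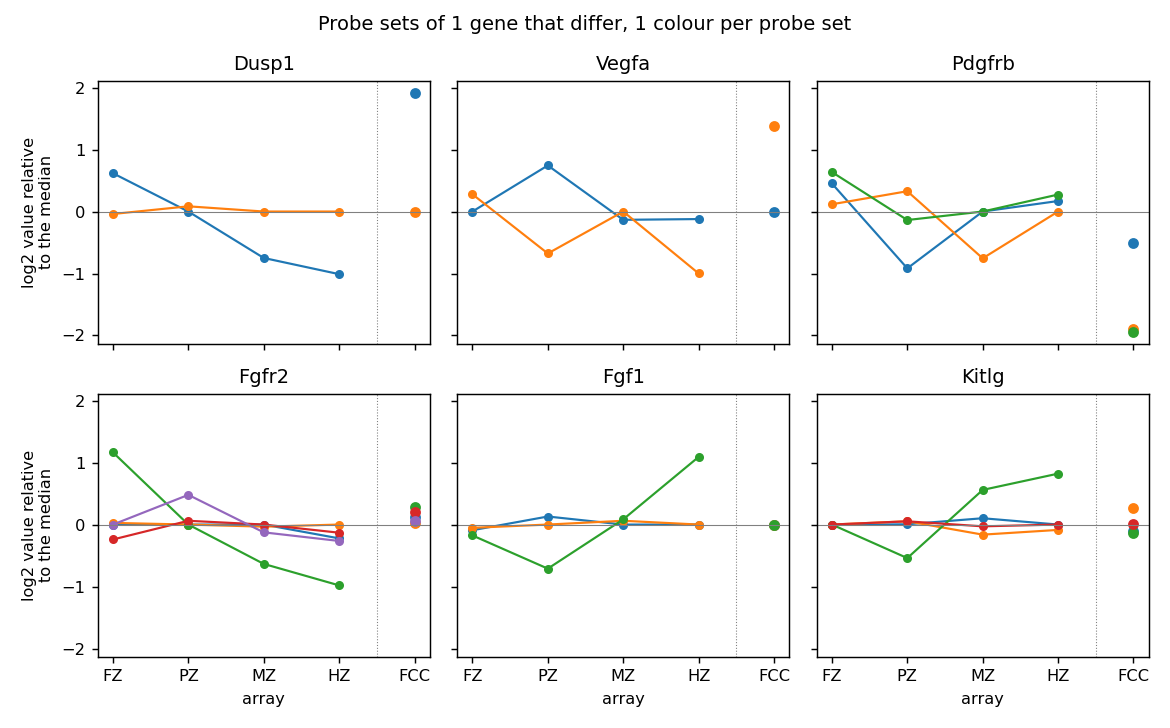
Log2 value relative to the probe set's median (vertical) on the 4 MCC arrays, joined by lines, and on FCC, for 6 member genes with several probe sets, with 1 colour for each probe set. In Dusp1, Vegfa, Fgfr2, Fgf1 and Kitlg 1 probe set varied more than the rest, while in Pdgfrb all 3 probe sets were under 0 in FCC.

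Among the VEGF and angiopoietin genes, Angpt2 had the widest difference between zones, -1.89 for PZ against HZ. Angpt2, a ligand of the endothelial receptor Tek that loosens vessels, was at 0.00 in FZ, -1.38 in PZ, 0.32 in MZ, 0.50 in HZ and -1.71 in FCC. PZ and FCC were low and the other arrays were close together, which gave 1.57 for the MCC zones against FCC and -1.10 for superficial against deep zones. Without PZ the difference between superficial and deep zones was -0.41. Angpt1 stayed within 0.46 and Angpt4 within 0.80 over the arrays.

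Vegfa, the main attractant of vessels, had 1 probe set at 0.28 in FZ, -0.68 in PZ, 0.00 in MZ, -1.0 in HZ and 1.38 in FCC, with all zones under FCC by at least 1.10. The other Vegfa probe set was at 0.00, 0.74, -0.13 and -0.12 in the zones and 0.00 in FCC, so the probe sets gave opposite signs, -1.73 and 0.12, against FCC. For MZ against HZ the wider probe set gave 1.0 and the other -0.01. Vegfb was at 0.43, -0.90, 0.21 and -0.04 in the zones and 0.00 in FCC, low in PZ alone. Vegfc, a factor of lymphatic vessels, was at -0.76 in FZ, -0.24 in PZ, 0.21 in MZ, 0.06 in HZ and 0.00 in FCC, and Vegfd had a range of 0.56.

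The receptors of these ligands were not members but were in a list of 12 measured VEGF and angiopoietin receptors and cofactors. Of these, 1 was higher by at least 1 in superficial than in deep zones and 2 were lower. Against FCC 3 were higher in the MCC zones and none was lower. Angptl1, also on the list, was not found under its symbol and is missing from these counts. The study reports it as much lower in MZ and HZ than in FZ, PZ and FCC. Among all genes, 2.24% were higher and 3.78% lower by this size between zones, and 5.13% and 4.7% against FCC, and nothing is read from the counts of this and the other short lists beside those shares. Tek, the receptor of Angpt2, differed by -1.11 and Tie1, its partner, by -1.22 between superficial and deep zones. Against FCC the coreceptors Nrp1 and Nrp2 were higher in the MCC zones by 1.32 and 1.15, and Angptl4 by 1.29. The 2 probe sets of Nrp1 gave 0.64 and 2.01 and those of Nrp2 gave 0.03 and 2.27, so the Nrp2 mean rested on 1 of them. The higher gene among the zones was Angptl2, a secreted angiopoietin-like protein, at 1.74 in FZ, 1.52 in PZ, -1.23 in MZ, -1.62 in HZ and 0.00 in FCC. Tek and Tie1 are also in the endothelial list, 5 of whose 11 genes were lower by at least 1 in the superficial zones, and the part of vessel cells in the Angpt2 values was not tested.

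Among the EGF family ligands, most genes varied little across the arrays and Egf was high in FCC alone. Egf was at -0.14 in FZ, 0.00 in PZ, 0.00 in MZ, -0.01 in HZ and 1.53 in FCC, with the 4 zones alike and a mean difference of -1.57. Of the 9 ligand genes, 6 had every probe set within 0.5, namely Btc, Ereg, Hbegf, Tgfa, Nrg2 and Nrg4. The 8 probe sets of Nrg1 had ranges of at most 0.52. A range under 0.5 was found in 43.5% of all probe sets. Areg was at -0.23, 0.00, 0.54 and 0.13 in the zones and -0.31 in FCC. Egfr, the receptor of Egf and Areg, was highest in FZ in each of its 3 probe sets, and the widest was at 0.70 in FZ, 0.22 in PZ, 0.00 in MZ, -0.52 in HZ and -0.04 in FCC. Erbb2, the coreceptor of the family, had the same order of zones at 0.43, 0.20, 0.00 and -0.21, with 0.00 in FCC, whereas Erbb3 was within 0.11 and Erbb4 within 0.62.

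In a list of 11 measured sheddases and inhibitors of the ErbB receptors, 1 gene was higher and 1 lower by at least 1 in superficial against deep zones. These were the related membrane proteins Lrig3 at 1.31 and Lrig1, an ErbB inhibitor, at -1.01. The 2 probe sets of Lrig3 gave 0.01 and 2.60, so its mean rested on 1 of them. Against FCC none was higher and 2 were lower, Lrig1 at -1.18 and the inhibitor Errfi1 at -1.06.

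Among the remaining receptor systems, Axl, Gas6 and Kitlg each had a probe set with a range of at least 1. Axl, a receptor tyrosine kinase for Gas6, was at 0.59 in FZ, 0.26 in PZ, -0.37 in MZ, -0.72 in HZ and 0.00 in FCC. It was lower at each step down through the zones, with 0.97 for superficial against deep zones. Gas6, its ligand, had 1 of 3 probe sets at 0.53, 0.00, -1.14 and -0.47 in the zones and 0.71 in FCC, and the mean of its probe sets gave 0.54 in the same contrast. Kitlg, the ligand of Kit, had 1 of 4 probe sets at 0.00 in FZ, -0.54 in PZ, 0.56 in MZ, 0.82 in HZ and -0.13 in FCC, while the other 3 were within 0.43. Kit itself had a range of 0.01, Met of 0.11 and Hgf of 0.44. Of 8 measured partners of the HGF and Gas6 receptors, Spint1 and Spint2, inhibitors of the proteases that activate HGF, each gave -1.44 for superficial against deep zones, and Spint2 was at -2.12 for the MCC zones against FCC.

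The feedback inhibitors Dusp6, Spry1 and Spry4 were higher in the deep zones than in the superficial zones and FCC. Dusp6, a phosphatase specific for ERK, had 3 probe sets of the same order. The first was at 0.00 in FZ, -0.19 in PZ, 0.83 in MZ, 1.33 in HZ and -0.61 in FCC, the second at 0.00, -0.74, 0.98 and 1.19 in the zones and -0.61 in FCC, and the third at 0.00, -1.14, 0.77 and 1.21 in the zones and -0.54 in FCC. In all 3 HZ was the highest array, MZ the next, and FZ and PZ were under both. The mean difference between superficial and deep zones was -1.40, with -1.57 to -1.18 over the probe sets, and without PZ it was -1.06. Against FCC the zones averaged 0.94 higher, which rested on FZ, MZ and HZ, since PZ was under FCC in 2 of the 3 probe sets.

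Spry1, a Sprouty protein that blocks signalling from receptors to ERK, was at 0.00 in FZ, -1.49 in PZ, 0.29 in MZ, 0.66 in HZ and -1.40 in FCC. PZ and FCC were low and the other 3 arrays were close, with -1.22 for superficial against deep zones and 1.27 for the MCC zones against FCC. Without PZ the difference between superficial and deep zones was -0.48. Spry4, of the same family, was at 0.00, -0.41, 0.98 and 0.64 in the zones and -0.33 in FCC, with MZ and HZ above the other arrays, and differed by -1.01 between superficial and deep zones, or -0.81 without PZ. Spry2 was at -0.31, -0.26, 0.00 and 0.05 in the zones and 0.07 in FCC and Spry3 had a range of 0.25, so neither of these relatives was 1 apart on any pair of arrays.

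**Figure D4:**
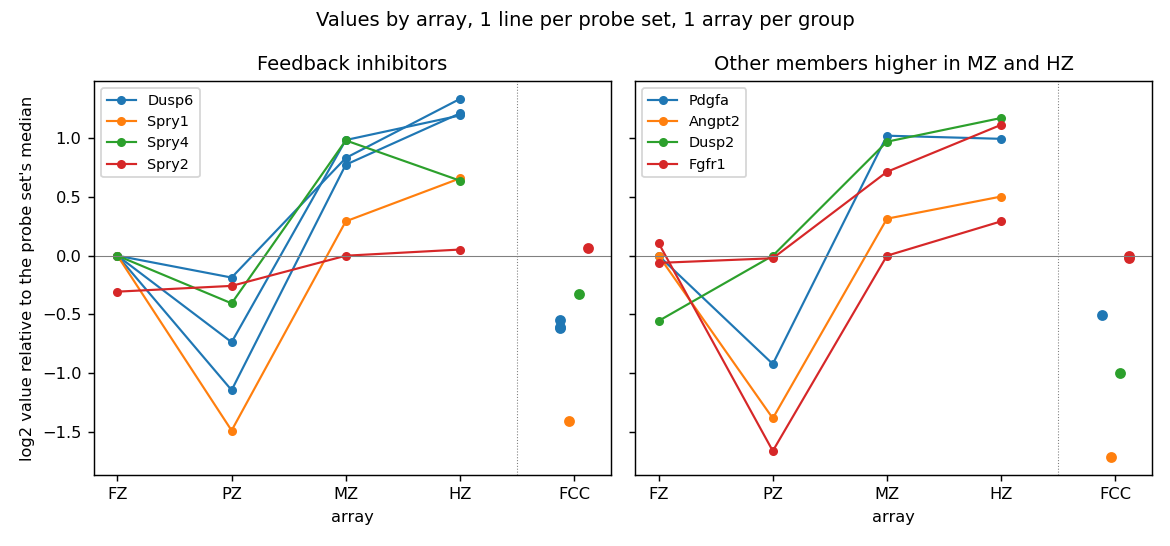
Log2 value relative to the probe set's median (vertical) by array for Dusp6, Spry1, Spry4 and Spry2 (left) and for Pdgfa, Angpt2, Dusp2 and Fgfr1 (right), with 1 line per probe set over the 4 MCC zones and points for FCC. The 3 Dusp6 probe sets are at 1.19 to 1.33 in HZ and -0.61 to -0.54 in FCC, and Spry1 and Angpt2 share low values in PZ and FCC.

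Dusp2, a nuclear phosphatase of MAP kinases best known from activated leukocytes, was at -0.56 in FZ, 0.00 in PZ, 0.97 in MZ, 1.17 in HZ and -1.0 in FCC. It was higher at each step from FZ to HZ, with -1.35 for superficial against deep zones and 1.4 for the MCC zones against FCC. The pan-leukocyte markers followed the same direction as it, Dusp6 and Spry1, in that 6 of 8 were lower by at least 1 in the superficial zones and 6 of 8 were higher by at least 1 in the MCC zones than in FCC. Their part in these values was not tested. Of 6 erythroid markers 5 were lower by at least 1 in the superficial zones, as were 5 of 8 hypertrophic chondrocyte markers.

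Dusp1, a phosphatase induced by stress and by serum, was instead lowest in the deep zones. Its wider probe set was at 0.62 in FZ, 0.00 in PZ, -0.75 in MZ, -1.01 in HZ and 1.91 in FCC, lower at each step down the zones and highest in FCC. The other Dusp1 probe set had a range of 0.12 over the arrays, so the gene's mean difference was 0.61 for superficial against deep zones and -1.09 for the MCC zones against FCC. Dusp8, which acts on stress kinases, was at 0.07, 0.97, 0.00 and 0.00 in the zones against -0.81 in FCC, with PZ high, and averaged 1.06 above FCC. Dusp9, another ERK phosphatase, was at 0.43, 0.62, -0.11 and 0.00 in the zones and -0.54 in FCC. Dusp4, Dusp5, Dusp7 and Dusp10 had ranges between 0.08 and 0.76.

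The remaining dual-specificity phosphatases do not carry a MAP kinase binding domain, and 3 of them stood out. Dusp15 was at 0.00 in FZ, 0.06 in PZ, -0.06 in MZ, -0.01 in HZ and 1.91 in FCC, flat across the MCC. Dusp14 was at 0.49, 0.00, -0.40 and -0.64 in the zones against 0.97 in FCC and Dusp19 at 0.30, 0.00, -0.75 and -0.90 against 0.01 in FCC, so that each was lower at each step from FZ to HZ. Dusp3 and Dusp18 had widest ranges of 1.04 and 1.08, and Dusp11, Dusp12, Dusp22, Dusp23 and Dusp26 had ranges between 0.17 and 0.90. In total 6 member probe sets were lower at each such step with ends at least 1 apart, where 1.73% of all probe sets were, and 3 were higher, where 0.986% were. The 6 were of Axl, Dusp1, Dusp14, Dusp19, Egfr and Fgfr2, and the 3 were of Dusp2, Fgf9 and Fgfr1. Dusp27, a name used in the study, is listed under Styxl2, a pseudophosphatase of striated muscle, and was outside the symbol rule. It was at -1.18 in FZ, 0.00 in PZ, 0.59 in MZ, 0.35 in HZ and -3.93 in FCC, with all 4 zones above FCC by at least 2.75.

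Whether FCC stood above or under every zone depended on the scaling. As deposited, FCC was above all 4 zones by at least 1 in 8 member probe sets (6.5% against 2.4% of all), of Fgf13, Fgf14, Fgfrl1, Pdgfrl, Vegfa, Egf, Dusp1 and Dusp15. It was under all 4 zones by at least 1 in 2 (1.63% against 2.03% of all), both of Pdgfrb. With the hybridization controls set equal, chosen for this count after seeing the data, FCC was above all 4 zones in 4 member probe sets (1.31% of all) and under them in 5 (4.08% of all). FZ and PZ were both under MZ and HZ, with means at least 1 apart, in 9 member probe sets (7.32% against 3.05% of all), 3 of which were of Dusp6, and both above in 3 (2.44% against 1.99%).

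At the level of genes, 3 of 83 members (3.61%) differed by at least 1 between FZ and PZ, against 7.22% of all genes, and none did between MZ and HZ. Between FZ and PZ, 3 member genes were higher in FZ by at least 1, against 6.1% of all genes, namely Spry1 at 1.49, Angpt2 at 1.38 and Vegfb at 1.33. None was lower, against 1.12% of all genes, and Fgfr3 came closest at -0.98, followed by Dusp8 at -0.90. Setting the hybridization controls equal would put the median of all probe sets at 0.54 in this pair. The gene counts for FZ against PZ were not repeated under that scaling. Between MZ and HZ no member gene was at least 1 apart, against 1.11% of all genes, and the values ran from -0.42 for Fgf9 to 0.60 for Fgfr3.

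The shared cascade under the receptors was represented by 29 measured genes from adaptors to ERK and AKT, of which none was higher by at least 1 in superficial than in deep zones and 1 was lower, Plcg2 at -1.28, a phospholipase typical of blood cells. Among all genes 2.24% were higher and 3.78% lower by this size. Against FCC, Cblb, a ubiquitin ligase that removes receptors, was higher in the MCC zones by 1.68, and Plcg2 was at -1.74. Among 15 measured coreceptors, adaptors and targets of FGF receptors none was at least 1 apart between superficial and deep zones. The ETS factors Etv4 and Etv5, which like Dusp6 are known targets of FGF signalling, differed by -0.60 and -0.04 there, against -1.40 for Dusp6. The 2 probe sets of Etv4 gave -1.27 and 0.06, and those of Etv5 gave -0.22 and 0.14. Etv1, of the same list, differed by -0.54 between superficial and deep zones, with -1.06 to -0.245 over its 5 probe sets. Against FCC 4 of the 15 were lower in the MCC zones, Flrt1 at -3.03, Fgfrl1, Flrt2 at -1.26 and Etv1 at -1.13, the last with -1.67 to -0.18 over its 5 probe sets. Flrt1 and Flrt2 are membrane proteins that bind FGF receptors.

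Of 19 immediate early genes that ERK can induce, Jun was higher by 1.0 in superficial than in deep zones, with 0.49 to 1.29 over its 3 probe sets, and none was lower by at least 1. Against FCC, Myc at 1.59 and Ccnd1 at 1.28 (0.35 to 1.82 over 3 probe sets) were higher in the MCC zones and Fosb at -3.01 and Egr1 at -1.91 were lower. Egr1 was at -0.72 in FZ, -0.84 in PZ, 0.15 in MZ, 0.00 in HZ and 1.56 in FCC, and Fosb at -0.53, 0.96, 0.00 and 0.00 in the zones against 3.12 in FCC. FCC was thus the highest array for both, as it was for the wider probe set of Dusp1. None of 10 stress kinases and their activators was at least 1 apart in either contrast.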

How the data were processed

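Expression was measured in 5 laser-captured pools with 1 array each. The authors deposited log2 values from RMA, with quantile normalization of the arrays and each probe set baselined to its median over them. The submitters' processing notes also name MAS5. They hold no level and no signal over background, and their precision is limited by the number of arrays. The authors' filter on low intensities could not be applied. Of 31099 probe sets, 57 controls were left out, 20826 had 1 symbol, 436 several, and 9780 were not listed.

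Differences were computed in Python 3.11.15 (pandas 2.3.3, numpy 2.4.6) and plots drawn in matplotlib 3.10.9. With 1 array per group nothing was tested. Sizes of 2 for probe sets and 1 for genes were counted. Genes were named if a probe set was at least 2 apart, if among the 6 highest or lowest in 4 contrasts, as the partner of such a ligand or receptor, where probe sets disagreed in sign past 1, or, for Dusp27, because the study names it. The members and lists were chosen with earlier results of these data known. Promoters came from RefSeq (GRCr8). The alternatives were array centring, hybridization control shifts, other thresholds and probe set choices, and arrays left out. The counting was tested on simulated data.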

Additional observations from a re-analysis of the deposited data

How the results depend on the processing

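No paired analysis was possible because each group has 1 array. With 1 array per group there is no replicate error, and the SD over the probe sets of a gene measures differences between probes, not between rats or pools. Every array already had a median of 0, so centring on it could change nothing. Leaving out probe sets that may match several transcripts gave 3 at least 2 apart in FZ against FCC, 7 in HZ against FCC and 11 in any pair, against 4, 8 and 12 with all, all within 1.5 times. With hybridization controls set equal, the probe sets at least 2 apart numbered 3 in PZ, 9 in MZ and 13 in HZ against FCC, 2 in FZ against PZ, 6 in PZ against MZ and 7 in PZ against HZ, and the genes higher in the MCC zones than FCC numbered 11 in place of 5. For the higher and lower split, added after seeing the data, the counts that moved past 1.5 times were 4 higher and 1 lower in FZ, 2 lower in PZ, 6 higher in MZ and 10 higher in HZ against FCC, 2 higher in FZ against PZ, 6 lower in PZ against MZ, and 7 lower in PZ against HZ. FCC then lay above all zones in 4 and under them in 5, in place of 8 and 2. For these splits the shares of all probe sets under this scaling are given above. For the gene count under it the share of all genes was not computed. At a size of 1.4 the member probe sets apart from FCC numbered 9 (FZ), 11 (PZ), 14 (MZ) and 18 (HZ). Between zones there were 3 each in FZ against PZ, FZ against MZ and FZ against HZ, 6 in PZ against MZ and 9 in PZ against HZ. In any pair there were 24. The shares of all probe sets at 1.4 were not computed, so nothing about the members is read from these counts. With 1 value per gene there were 2 in FZ (2.33% of all genes), 3 in PZ (2.36%) and 5 in HZ (3.69%) against FCC. Between zones there were 0 in FZ against HZ (1.4% of all genes) and 1 in PZ against HZ (1.88%). In any pair there were 6, for which the share of all genes was not computed. Taking the probe set with the largest SD of each gene gave 10 genes at least 1 apart between superficial and deep zones in place of 6, with 3 higher in place of 0. With an array left out, the genes at least 1 higher in superficial zones numbered 0 to 3 (3 without PZ and 2 without MZ), and those lower numbered 3 to 7 (3 without PZ). For the MCC zones against FCC, leaving out an array gave 10 to 14 genes against 12 with all arrays. For the largest-SD choice and the arrays left out, the shares of all genes were not computed. Nothing particular to the members is read from those counts. Of 480 values of 30 named genes under these alternatives, 381 moved by less than the median SD between probe sets and 99 by more. The 381 include 60 from array centring, which could not move, and 58 from leaving out probe sets that may match several transcripts. With hybridization controls set equal 30 moved by more and 30 by less, and without PZ 22 by more and 38 by less. In all settings 0 of the differences of at least 1 changed sign.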
